A study of Mus musculus with 8 samples.

Results

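The proteasome subunit genes were followed in mouse hearts under pressure overload. The members were the 47 genes whose name in the deposited table is Psm, a letter from a to g and a number, of 30445 rows in all. Of these, 5 (Psmb8, Psmb9, Psmb10, Psme1 and Psme2) encode subunits known to be induced by interferon, and 42 encode the other subunits, activators and assembly chaperones. Psmb11, the thymus subunit, was not among these 47 and so was not analysed here. All 47 members passed the filter on low counts, which left 17787 genes in the test. RNA came from hearts of C57 mice 8 weeks after transverse aortic constriction, an operation in which the aorta is tied partly shut so that the left ventricle pumps against raised pressure. The 2 groups were 4 wildtype libraries and 4 libraries labelled Mertk knockdown, and no unoperated heart was analysed here. MERTK is a receptor that macrophages use to take up dying cells, and the series title links it to type I interferon. The labels do not say how or in which cells Mertk was lowered, nor whether the replicates are different mice, so a p-value reflects only how much these libraries vary, which may be technical in part.

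The proteasome degrades proteins tagged with ubiquitin. Its barrel, the 20S core, has outer rings of alpha subunits and inner rings of beta subunits, and the 19S cap on its ends binds, unfolds and feeds in substrates. In cells that sense interferon, the catalytic subunits Psmb5, Psmb6 and Psmb7 of newly built cores are replaced by Psmb8, Psmb9 and Psmb10, and the result is called the immunoproteasome. Its peptides, and the cap PA28 made of Psme1 and Psme2, serve the loading of MHC class I. In heart muscle the proteasome takes part in the turnover of contractile proteins, and immune cells are known to be rich in the immune form.

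The targeted gene, Mertk, did not have a lower mean in the labelled libraries. It had 11.1 ± 0.87 CPM (counts scaled to one library size, SD, n = 4) in the wildtype libraries. The labelled libraries had 11.9 ± 0.951 CPM (SD, n = 4), a log2 fold change of 0.10 with an SE of 0.11 (edgeR adjusted p = 0.766). Libraries held 59287621 to 71571173 counts. Cardiomyocyte markers were abundant in every library. Their summed level was 28300 to 39300 CPM in wildtype and 41200 to 46100 CPM in the labelled group, which did not overlap. Of these 8 markers, 2 had a log2 fold change below 0, and 0 had an edgeR adjusted p under 0.05. The 5 endothelial markers did not overlap either, at 445 to 512 CPM in wildtype and 551 to 692 CPM in the labelled group, and all 5 had a log2 fold change above 0. Libraries differed in markers of other tissue. The 15 hepatocyte markers summed to 315 CPM in wildtype replicate 1, to 52.5, 63.6 and 53.7 CPM in wildtype replicates 2, 3 and 4, and to 247 to 317 CPM in the labelled group. The atrial genes Myl7, Myl4 and Sln summed to 338 CPM in wildtype replicate 3, 189 CPM in wildtype replicate 4 and 606 CPM in labelled replicate 4, and to at most 3.71 CPM in the other 5 libraries. All 7 atrial markers, which include Nppa, a gene that ventricles also express under load, summed to 336, 2360, 852 and 1120 CPM in wildtype and 195, 330, 490 and 2010 CPM in the labelled libraries, so wildtype replicate 2 was the highest on that list. The 8 macrophage markers summed to 219, 287, 216 and 325 CPM in the wildtype libraries and 231, 187, 218 and 215 CPM in the labelled ones, and all 8 had a log2 fold change below 0. T and NK cell markers summed to 1.81 to 8.31 CPM in wildtype and 1.85 to 6.74 CPM in the labelled group. B cell markers summed to 0.852 to 1.69 CPM in wildtype and 1.12 to 3.23 CPM in the labelled group. Only 1 of the 5 B cell markers had a log2 fold change below 0. Dendritic cell markers summed to 18.5 to 24 CPM in wildtype and 20.1 to 23.5 CPM in the labelled group. What part these tissues and cells have in the results below was not tested. In bulk tissue, fewer cells of a type and less RNA per cell cannot be told apart.

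Promoter sequence is shown for 4 members, since the interferon-induced genes all had lower values in the labelled group. Psmb8 and Psme1 hold a motif of the interferon response, Psme2 holds none, and Psmb5 is shown as a constitutive gene. Windows of 300 bases (250 before and 50 after the start site, RefSeq, build GRCm38.p6) were found for 39 of the 47 members. They were searched on both strands for the core of the interferon-stimulated response element (GAAANNGAAA), the gamma-activated site GAS (TTCNNNGAA) and the antioxidant response element (TGACNNNGC). Lines read 5′ to 3′ on the gene's strand and capitals mark the motif. For Psmb8 and Psme1 only the motif and 10 bases on each side are given, since those windows overlap annotated first exons. For Psme2 and Psmb5 the bases of the window before the first annotated exon are given. Psme2 has 2 windows, neither with a match, and the first is shown.
Psmb8, GAS (chr17:34198088-34198116, plus strand): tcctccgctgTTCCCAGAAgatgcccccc
Psme1, interferon-stimulated response element core on the opposite strand (chr14:55578493-55578522, plus strand): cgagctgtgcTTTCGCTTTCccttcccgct
Psme2, no match (chr14:55591114-55591351, minus strand): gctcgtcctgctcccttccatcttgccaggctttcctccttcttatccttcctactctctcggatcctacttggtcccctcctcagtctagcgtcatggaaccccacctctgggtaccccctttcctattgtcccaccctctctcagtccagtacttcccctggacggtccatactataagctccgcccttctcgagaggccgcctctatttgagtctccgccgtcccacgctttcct
Psmb5, antioxidant response element (chr14:54618023-54618245, minus strand): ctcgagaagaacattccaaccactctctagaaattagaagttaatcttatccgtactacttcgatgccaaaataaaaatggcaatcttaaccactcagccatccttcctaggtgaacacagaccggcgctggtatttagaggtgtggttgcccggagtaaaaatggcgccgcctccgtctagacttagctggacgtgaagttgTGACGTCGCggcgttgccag

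The GAS of Psmb8 began 97 bases before the RefSeq start site, and the antioxidant element of Psmb5 began 47 bases before its own. The response element core of Psme1 began at base 10 of the RefSeq transcript. All 29 printed bases of Psmb8 and all 30 of Psme1 lay within annotated exons. In the deposited table these genes start further upstream, at 34197721 for Psmb8 and 55578123 for Psme1, so the start site differs between annotations. In the windows of the 5 induced members the response element core was found in 1 of 6 windows, in the other members in 4 of 36 (Psmb3, Psmd4, Psmd9 and Psmg4), and in 3.44% of all 32851 windows of the reference. GAS was found in 1 of 6, in 2 of 36 (Psmd2 and Psmg1) and in 8.3% of windows. The antioxidant element was found in 0 of 6 windows of the induced members, in 6 of 36 windows of the others (Psmb5, Psmb6, Psmc6, Psmd12, Psmd9 and Psme4) and in 12.4% of all windows. No matches overlapped in the windows shown. A match is a string of letters and not a measured binding site, and most induced members had none in this window.

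Of the 47 members, 2 fell in the labelled group (edgeR adjusted p under 0.05) and 0 rose. The 2 were Psmb8 and Psme2, both interferon-induced. Over all genes tested 0.371% fell and 0.275% rose. At an unadjusted p under 0.05 by edgeR, 7 members were lower and 0 higher, where 6.32% of all genes tested were lower and 6.11% higher. The median log2 fold change (labelled Mertk knockdown minus wildtype) was −0.71 over the 5 induced members, −0.10 over the 42 others and −0.001 over all genes tested. All 5 induced members and 34 of the 42 others had a value below 0, against 8913 of 17787 genes. For 6 members every labelled library lay below every wildtype library, which was so for 3.9% of all genes, and for 0 members did every labelled library lie above, which was so for 4.18%. DESeq2 called 4 members lower, adding Psmb9 (adjusted p = 0.00102) and Psmb10 (0.00736), where it called 2.07% of the genes it tested lower. It called 0 members higher, against 1.65% of those genes.

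**Figure D1:**
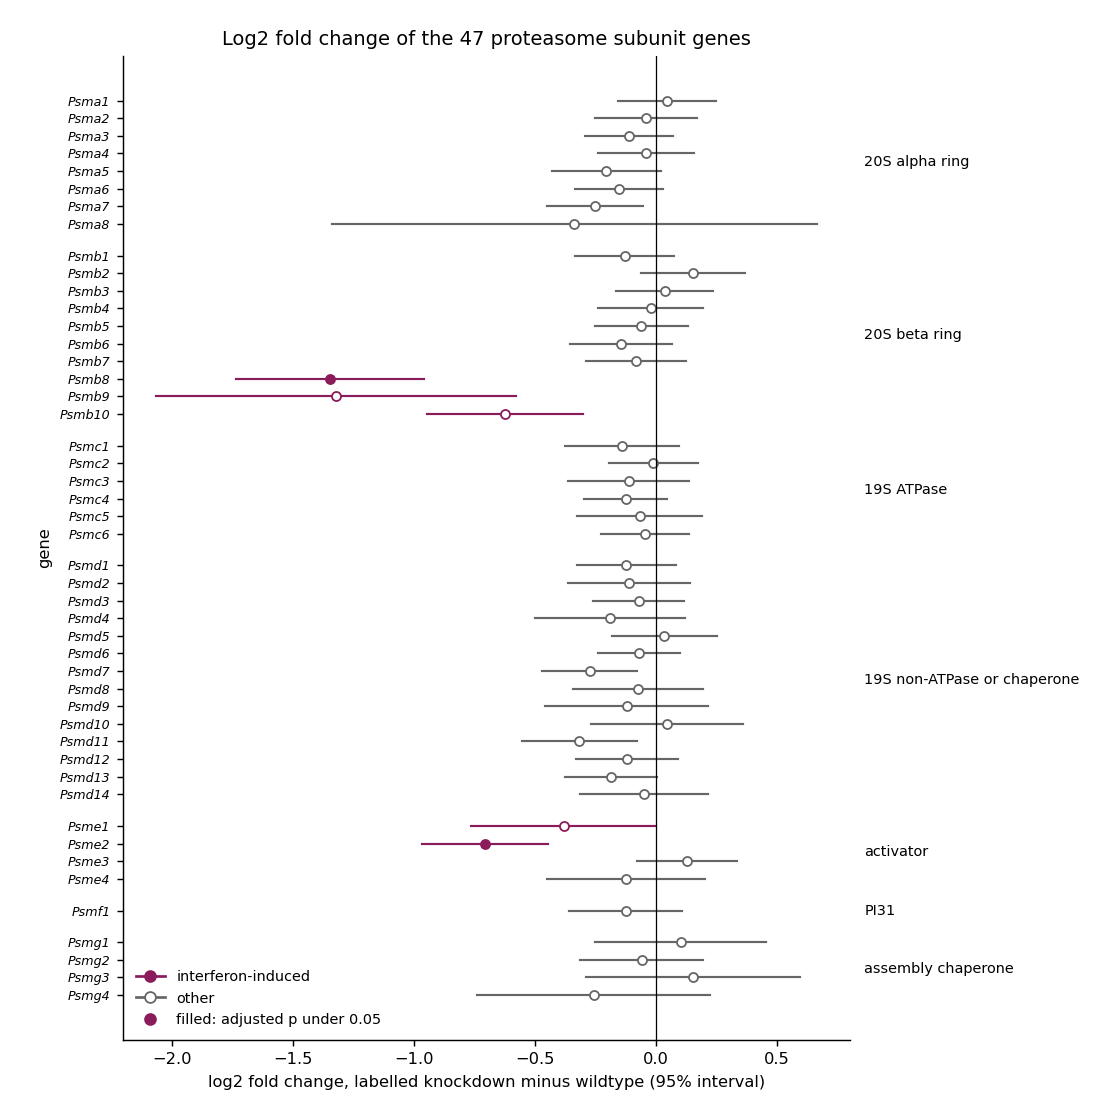
Log2 fold change (labelled Mertk knockdown minus wildtype, x axis) of the 47 proteasome subunit genes (y axis, grouped by place in the complex), with 95% intervals from edgeR; 4 libraries a group. Purple marks the 5 interferon-induced members and filled points an adjusted p under 0.05. The induced members lie between −1.35 and −0.38, and the other 42 between −0.34 and 0.16.

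Among the immune catalytic subunits, Psmb8 fell, and Psmb9 and Psmb10 were lower without passing the test. Psmb8 (ENSMUSG00000024338, chromosome 17, 34197721 to 34201454, plus strand) encodes LMP7, which takes the place of Psmb5 and cleaves after hydrophobic residues. Its level was 23.2, 28.4, 23.7 and 31.6 CPM in wildtype replicates 1 to 4 and 8.22, 8.93, 10.98 and 13.9 CPM in the labelled replicates. The groups did not overlap, and labelled replicate 4 was the closest to wildtype. The fall was 2.54-fold (log2 fold change −1.35, SE 0.18, 95% interval −1.74 to −0.96, edgeR adjusted p = 0.0127). The call was kept when any single library was left out (edgeR adjusted p 0.00739 to 0.0444). It was lost with the hepatocyte marker score as a covariate (log2 fold change −1.09, edgeR adjusted p = 0.214). That score was 3.6 to 3.92 in the labelled libraries, 3.79 in wildtype replicate 1 and 0.94 to 1.39 in wildtype replicates 2, 3 and 4, so it nearly followed the group. The call was also lost among the 5 libraries with hepatocyte markers at 200 CPM or more (log2 fold change −1.13) and among the 4 with the lowest atrial markers (−1.30). Both of these sets hold wildtype replicate 1 as their only wildtype library. A further loss was among the 5 libraries with at most 10 CPM of the atrial genes, with 2 wildtype libraries (−1.45, edgeR adjusted p = 0.0791).

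Psmb9 (ENSMUSG00000096727, chromosome 17, 34181987 to 34187764, minus strand) encodes LMP2, which takes the place of Psmb6. It stood at 8.85, 20.4, 9.53 and 20.3 CPM in wildtype and 4.10, 4.91, 7.46 and 7.18 CPM in the labelled libraries. Wildtype replicates 2 and 4 were more than 2 times as high as replicates 1 and 3, and the labelled libraries lay below all of them. The log2 fold change of −1.32 was close to that of Psmb8, but its SE was 0.33 and edgeR did not call it (adjusted p = 0.145). Among the 5 libraries with hepatocyte markers at 200 CPM or more, without wildtype replicates 2, 3 and 4, the log2 fold change was −0.58. With the hepatocyte score, which nearly followed the group, as a covariate it was −0.50.

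Psmb10 (ENSMUSG00000031897, chromosome 8, 105935735 to 105938104, minus strand) encodes MECL-1, which takes the place of Psmb7. Its level was 37.6, 47.1, 36.4 and 54.0 CPM in wildtype and 23.2, 29.3, 31.7 and 29.4 CPM in the labelled libraries. The groups did not overlap, and wildtype replicates 2 and 4 were again the highest. The log2 fold change of −0.63 (SE 0.15, 95% interval −0.95 to −0.30) was not called by edgeR (adjusted p = 0.107). It was −0.40 among the libraries with hepatocyte markers at 200 CPM or more and −0.36 with the hepatocyte covariate, under the limits given for Psmb8.

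The constitutive partners did not pass the test. Psmb5, the chymotrypsin-like subunit, was at 34.9, 40.3, 39.0 and 38.3 CPM in wildtype and 37.1, 34.9, 40.1 and 34.1 CPM in the labelled libraries (log2 fold change −0.06, SE 0.09). Psmb6, the caspase-like subunit, had a log2 fold change of −0.15 (SE 0.10) and Psmb7, the trypsin-like subunit, one of −0.08 (SE 0.09). In each of the 3 the groups overlapped and edgeR adjusted p was 0.591 or higher. The 95% interval of Psmb5 ran from −0.25 to 0.13.

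**Figure D2:**
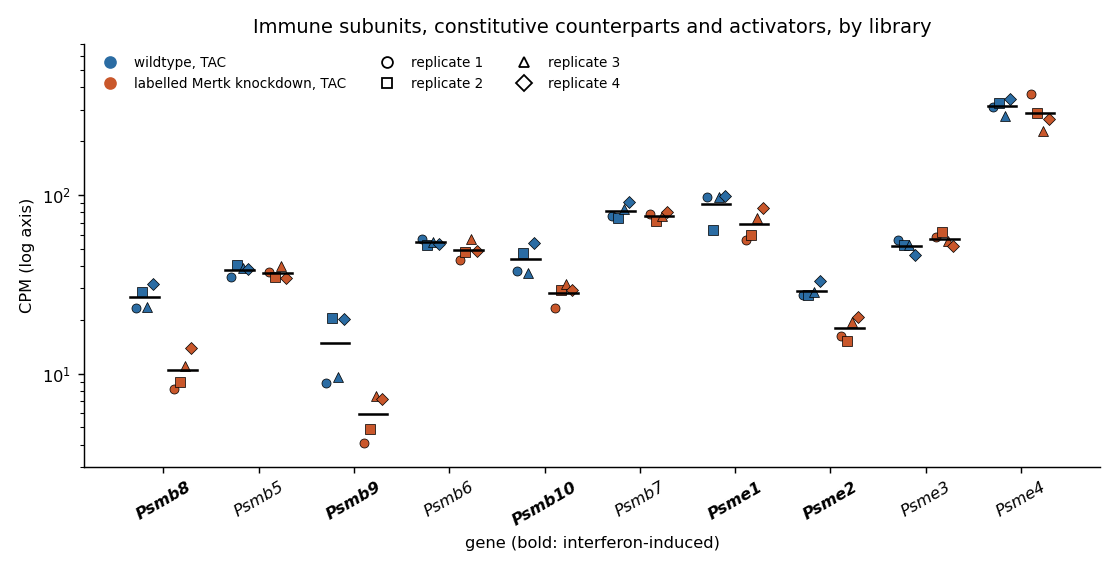
Level (CPM, log axis) of the 5 interferon-induced members (bold) and of their counterparts and the other activators in each library; colour gives the group, the symbol gives the replicate number and bars the group means. Labelled libraries lie below all wildtype libraries for Psmb8, Psmb9, Psmb10 and Psme2, and overlap them for Psme1 and for Psmb5, Psmb6, Psmb7, Psme3 and Psme4.

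The balance within each catalytic pair was read as the share of the immune subunit in the summed FPKM of the pair (fragments scaled to gene length and library size). In wildtype, Psmb8 made up 15.7% ± 1.71 of Psmb8 plus Psmb5, and in the labelled libraries 7.1% ± 1.82 (SD over 4 libraries, as for the shares that follow). By library this was 15.0%, 15.8%, 13.9% and 17.9% in wildtype against 5.55%, 6.35%, 6.77% and 9.73%. Psmb9 made up 12.1% ± 4.99 of its pair with Psmb6 in wildtype and 5.71% ± 1.13 in the labelled group. The wildtype shares of Psmb9 were in 2 levels, 7.40% and 8.16% in replicates 1 and 3 and 16.5% and 16.3% in replicates 2 and 4. Psmb10 made up 51.7% ± 4.34 of its pair with Psmb7 in wildtype and 42.5% ± 3.81 in the labelled group. In all 3 pairs each labelled library lay below each wildtype library. The immune-to-constitutive ratio was 2.47, 2.15 and 1.45 times higher in wildtype for Psmb8, Psmb9 and Psmb10. These are descriptions without a test.

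The shares, and their differences in percentage points, depend on the gene length behind the FPKM, while the fold between the groups in the ratio of the pair does not. The deposited FPKM of the 47 members match a length 1.09 to 1.14 times the union of all exons annotated in GENCODE M21, which counts retained introns. For Psmb8 that union is 3381 bases, against 1628 bases of the transcript with the longest coding sequence. With lengths of such coding transcripts, the share of Psmb8 was 25.1% to 31.3% in wildtype and 10.9% to 18.3% in the labelled group. The share of Psmb9 was 8.47% to 18.6% and 5.31% to 8.01%, and that of Psmb10 was 27.8% to 36.1% and 20.7% to 26.8%. On that scale none of the immune subunits made up more than its constitutive partner in any library.

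**Figure D3:**
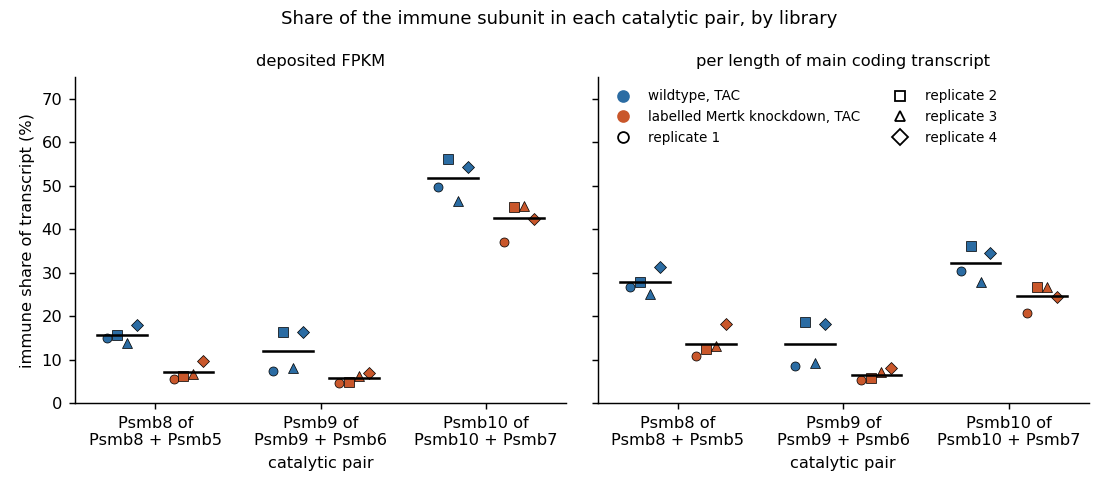
Share (%, y axis) of the immune subunit in each catalytic pair, by library, from the deposited FPKM (left) and per length of the main coding transcript (right); bars are group means. In each pair the 4 labelled libraries lie below the 4 wildtype libraries on both scales, while the share of Psmb10 in wildtype is 46.6% to 56.1% in the left panel and 27.8% to 36.1% in the right one.

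Of the activators, Psme2 fell and its partner did not pass the test. Psme2 (ENSMUSG00000079197, chromosome 14, 55587441 to 55591113, minus strand), the beta subunit of PA28, was at 27.5, 27.7, 28.7 and 32.8 CPM in wildtype and 16.2, 15.3, 19.4 and 20.6 CPM in the labelled libraries. The wildtype libraries lay within 27.5 to 32.8 CPM, above every labelled library. The fall was 1.63-fold (log2 fold change −0.71, SE 0.12, 95% interval −0.97 to −0.45, edgeR adjusted p = 0.0330). The direction was kept in all 21 alternatives, and the call in 8 of them. Leaving out wildtype replicate 3 or 4 or labelled replicate 1, 2 or 3 ended it (edgeR adjusted p 0.0678 to 0.0965). Of the 100-base pieces of its coding transcript, 44.5% also occur in Psme2b, a near-identical copy on chromosome 11, so reads may be split between them. Psme2b had a mean of 10.5 ± 1.64 CPM in the wildtype libraries and of 8.38 ± 1.14 CPM in the labelled ones (SD, 4 each), and the sum of both genes had a log2 fold change of −0.60 (edgeR adjusted p = 0.0490).

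Psme1 (ENSMUSG00000022216, chromosome 14, 55578123 to 55581528, plus strand), the alpha subunit of PA28, was at 97.7, 63.6, 96.9 and 98.8 CPM in wildtype and 55.8, 60.0, 74.3 and 84.1 CPM in the labelled libraries. Wildtype replicate 2 stood among the labelled libraries, and the other wildtype libraries stood above all of them. The log2 fold change was −0.38 (SE 0.17, edgeR adjusted p = 0.405), and it was −0.51 without wildtype replicate 2 (edgeR adjusted p = 0.181). Psme3, which forms a nuclear activator that interferon does not induce, had a log2 fold change of 0.13 (SE 0.09), and Psme4, the large activator PA200, one of −0.12 (SE 0.15). Psme4 ranged from 227 to 368 CPM in the labelled group, which spanned all of its wildtype values of 277 to 342 CPM.

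Of the 42 other members, 0 were called by edgeR or DESeq2. At an unadjusted p under 0.05 by edgeR 3 were lower and 0 higher, where 6.32% of all genes tested were lower and 6.11% higher. In 2 of the 42 every labelled library lay below every wildtype library, which was so for 3.9% of all genes. Most of the 42 lay slightly below 0. Of the 8 alpha-ring genes 7 did so (median −0.13), of the 7 other beta-ring genes 5 (median −0.06), of the 6 ATPases of the 19S base all 6 (median −0.09), and of the 14 further 19S subunits and chaperones 12 (median −0.12). The 4 assembly chaperones Psmg1 to Psmg4 were split evenly, with 2 on each side, and the inhibitor Psmf1 (PI31) stood at −0.13. The 42 together summed to 2786, 2540, 2644 and 2666 CPM in wildtype and 2589, 2495, 2471 and 2364 CPM in the labelled libraries, so the groups overlapped. By part, the summed FPKM overlapped in all but the further 19S subunits and chaperones, which stood at 254.2, 242.1, 231.5 and 244.8 FPKM in wildtype and 226.5, 228.8, 226.5 and 211.3 FPKM in the labelled libraries. The 5 induced genes summed to 194.8, 187.2, 195.2 and 237.4 CPM in wildtype and 107.5, 118.4, 143.8 and 155.1 CPM in the labelled libraries, which did not overlap. The median of the 42 stayed between −0.12 and −0.06 over the 20 alternatives, and other scalings of the libraries moved the log2 fold change of a typical gene by −0.02 to 0.02.

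The lowest values among the 42 others were those of Psma8 (−0.34, SE 0.45), Psmd11 (−0.32, SE 0.11), Psmd7 (−0.27, SE 0.09), Psmg4 (−0.26, SE 0.22) and Psma7 (−0.25, SE 0.09), all on the log2 fold change scale. That of Psma8 rested on 30 to 60 counts a library in wildtype and 20 to 51 in the labelled group. Psmd7, a lid subunit that pairs with the deubiquitinase Psmd14, was at 101, 91.9, 98.2 and 87.0 CPM in wildtype and 82.7, 77.7, 80.5 and 71.8 CPM in the labelled libraries. Its groups did not overlap, and edgeR adjusted p was 0.226. Psmd11, a lid subunit that helps hold the 19S cap to the core, was at 48.1 to 55.1 CPM in the labelled libraries, and only wildtype replicate 4, at 53.5 CPM, lay within that range (edgeR adjusted p = 0.255). Psma7, an alpha-ring subunit, reached an edgeR adjusted p of 0.278. The sixth member without overlap was Psmc4, a 19S ATPase, with a log2 fold change of −0.13 and no call. Its lowest wildtype library was at 46.1 CPM and its highest labelled one at 46.04 CPM. In the deposited FPKM its groups overlapped, with wildtype replicate 3 at 18.16 and labelled replicate 3 at 19.86. Psmc4 is outside the rule for named genes and was picked because its groups did not overlap in CPM.

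The highest values were those of Psmb2 (0.16, SE 0.10), a structural beta subunit, Psmg3 (0.15, SE 0.20), Psme3 (0.13), Psmg1 (0.10, SE 0.16) and Psmd10 (0.05, SE 0.14), an assembly chaperone of the 19S base also known as gankyrin. None was called, and the groups overlapped in each. Psma8, the alpha subunit of the testis proteasome, had the lowest level of the family at a mean of 0.207 FPKM. The highest was that of Psmc3, an ATPase, at 51.8 FPKM, with a log2 fold change of −0.11. Germ cell markers summed to at most 0.799 CPM in any library.

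Members differed in how evenly they were expressed. Within wildtype the coefficient of variation had a median of 19% over the 5 induced members (8.45% for Psme2 to 43.7% for Psmb9) and of 9% over the 42 others. In the labelled group the medians were 19.1% and 6.91%. Psmb9 and Psma8 were the most variable of the wildtype group, and Psmd3, a subunit of the 19S lid, the least, at 2.93%.

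The induced genes lie in 3 places of the genome. Psmb9, Tap1, Psmb8 and Tap2 follow each other in the MHC on chromosome 17, and Tap1 and Tap2 form the pump that carries proteasome peptides into the endoplasmic reticulum. The log2 fold change was −1.93 for Tap1 (adjusted p = 0.186 by edgeR and 0.00945 by DESeq2) and −0.65 for Tap2 (edgeR adjusted p = 0.254). Psmb9 and Tap1 overlap at their starts on opposite strands, and how the authors' counting treated strand is not stated, so some reads may be assigned to either. On chromosome 14, Emc9, between Psme1 and Psme2, had a log2 fold change of −0.09, and Rnf31 and Irf9, which follow Psme2, had −0.34 and −0.97. Neither was called by edgeR, and DESeq2 called Irf9 (adjusted p = 0.00264). Beside Psmb10 on chromosome 8, Lcat stood at 0.03, and Ctrl, on the other side, at −1.31 (edgeR adjusted p = 0.403). For Ctrl every labelled library lay below every wildtype library, at low means of 0.129 CPM and 0.321 CPM. The antisense gene Gm16156, which spans Psmb10, was at 0.351 CPM in wildtype, a small part of the reads there.

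Among genes that work with the proteasome, the 26 tested of 28 assembly, accessory and transcription factors had 0 calls by edgeR or DESeq2, 3 lower at an unadjusted p under 0.05 by edgeR, and a median of −0.06. The smallest p in that list belonged to Pomp, the chaperone that completes newly built cores (log2 fold change −0.37, edgeR adjusted p = 0.192), Ufd1, a cofactor of the segregase that pulls substrates to the proteasome (−0.21, 0.350), and Nfe2l2, a stress factor that drives subunit genes (−0.31, 0.390). Of 7 ubiquitin genes and activating enzymes 0 were called by edgeR and 1 had an unadjusted p under 0.05. Uba7, which activates the ubiquitin-like ISG15, stood at −1.19 with an edgeR adjusted p of 0.0754 and was called by DESeq2 (adjusted p = 2.99e-05), and Ubb stood at −0.21. Of 14 muscle ubiquitin ligases 0 were called by edgeR, 2 were higher at an unadjusted p under 0.05, and 11 had a value above 0 (median 0.10). Over all genes tested 6.32% were lower and 6.11% higher at an unadjusted p under 0.05 by edgeR. Trim63, the atrophy ligase MuRF1, stood at 0.36 with an edgeR adjusted p of 0.186 and a DESeq2 adjusted p of 0.046, Smurf1 at 0.34 and Fbxo30 at 0.21.

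Downstream of the proteasome, 17 of 18 genes of peptide loading onto MHC class I were tested. By edgeR 0 were called, and at an unadjusted p under 0.05 9 were lower and 0 higher. Over all genes tested 6.32% were lower and 6.11% higher at that p. DESeq2 called 6 lower, where it called 2.07% of the genes it tested lower. Of the 17, 13 lay below 0, and the median was −0.38. B2m, the light chain of class I, had a log2 fold change of −0.95 (edgeR adjusted p = 0.0624), H2-D1, a heavy chain, one of −0.68 (0.0845), and Tapbp, which holds class I to the peptide pump, one of −0.59 (0.166). The DESeq2 adjusted p of these 3 was 4.68e-05, 0.000929 and 0.0257. Upstream, 17 of 18 interferon signalling genes were tested and 3 fell, among them Irf7 (−2.28, edgeR adjusted p = 0.00125) and Usp18 (−1.81, 0.0330). Over all genes tested 0.371% fell. At an unadjusted p under 0.05 by edgeR, 8 genes of this list were lower and 2 higher. The median of that list was −0.42, and 5 of its genes lay above 0. These lists come from the same libraries as the members, and a shared direction between them is a description.

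The libraries ranked differently for different genes. In wildtype, Psmb9, Psmb10 and Psmb8 were highest in replicates 2 and 4, as were Tap1 (26.8, 78.4, 26.3 and 96.5 CPM in replicates 1 to 4) and Nlrc5, the activator of class I genes (16.4, 54.3, 16.9 and 57.5 CPM). The spread was widest for Tap1 and Nlrc5 and small for Psmb8. Psme1 did not share that order, and B2m (520, 419, 551 and 370 CPM) and H2-K1, another class I heavy chain (472, 268, 442 and 261 CPM), had the opposite one. The macrophage markers and the 7 atrial markers, given above, and the fibroblast markers (484, 997, 461 and 702 CPM) were also highest in wildtype replicates 2 and 4, and hepatocyte markers were high in replicate 1 alone; their part in these orders was not tested. Tap1, Tap2, Nlrc5, H2-K1 and the genes beside the induced members were chosen after their values were seen.

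**Figure D4:**
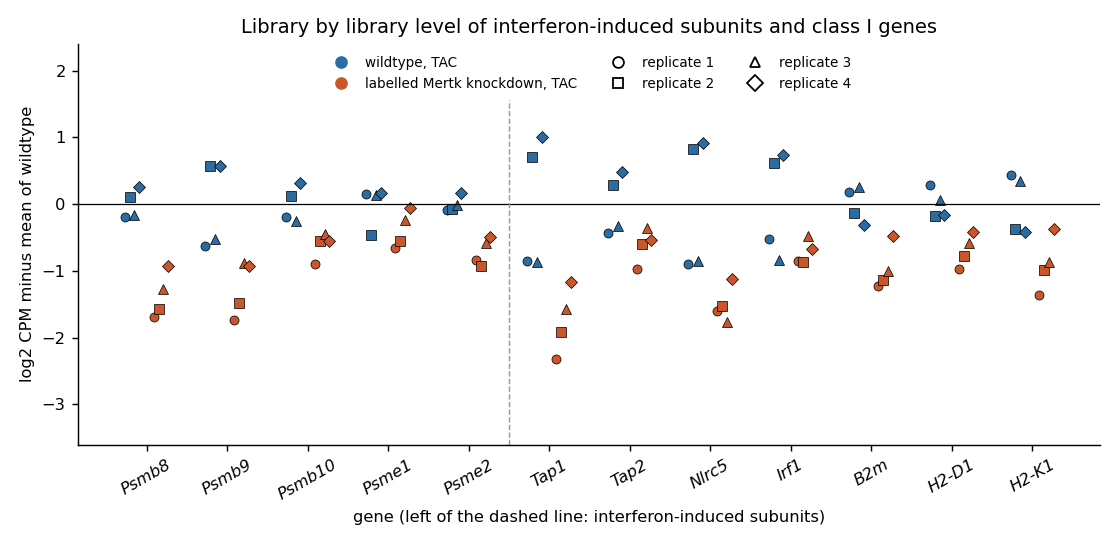
Log2 CPM of each library minus the wildtype mean of that gene (y axis) for the 5 interferon-induced members (left of the dashed line) and 7 genes of interferon signalling and class I presentation; colour gives the group and the symbol the replicate number. Wildtype replicates 2 and 4 (square and diamond) lie above replicates 1 and 3 for Psmb9, Tap1, Nlrc5 and Irf1, and below them for B2m and H2-K1.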

How the data were processed

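Poly(A) RNA was sequenced as paired ends on an Illumina instrument from a dUTP-marked library, per the labels' protocols. The authors deposited whole-number read counts and FPKM for each gene and library in 1 table, as its header shows (per the file headers). The build was mm10 and the tools named were StringTie 2.1.6, HISAT2 2.2.1, cutadapt 1.9, edgeR and DESeq2, per the submitters' processing notes, which give no role or order. Whether the counting used strand is not stated.

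Counts were tested for all genes by edgeR 4.0.16 with its quasi-likelihood F test (robust fit, TMM factors, filterByExpr, no covariate, two-sided) in R 4.3.3. Calls were made at a Benjamini-Hochberg adjusted p under 0.05 over all 17787 genes tested. SE is the size of the log2 fold change over the square root of F, and CPM use TMM-scaled totals. The script was tested on simulated counts. TMM-scaled totals of 57638872 to 73644403 put 3 counts at 0.0407 to 0.052 CPM, which covers counting error only. No replicates agreed within sampling noise.

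The members and lists were chosen with earlier results of these data known. Named members are the induced subunits, their counterparts, called members, the 5 highest and 5 lowest others by log2 fold change, the highest and lowest by FPKM, Psma8 and Psmb11, with Mertk and, from each other list, the called genes or else the 3 with the smallest p. Other named genes were picked after their values were seen. Some genes that the rule takes are not reported here, while counts and medians include them. Alternatives were other normalizations, DESeq2 1.42.0, no filter, limma 3.58.1 on log2 FPKM with 1 or 0.1 added, a replicate block, a hepatocyte covariate, library subsets and leaving out each library. The subset with atrial markers of at most 10 CPM and the coding transcript lengths were added after seeing the data. Promoters are from RefSeq (GRCm38.p6), and coordinates are from the deposited table on mm10, counted from 1. Lengths and 100-base pieces are from GENCODE M21.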

Additional observations from a re-analysis of the deposited data

Results flagged for a closer look

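Among the named members, 40 groups of 4 libraries were searched for a single library far from the others, and chance alone marks about 1 in 20. The Psme1 level of wildtype replicate 2 was 63.6 CPM, where the nearest other wildtype library was at 96.9 CPM, a gap of 0.946 of the group's range. The Psmd10 level of labelled replicate 3 was 8.24 CPM, where the nearest other labelled library was at 6.85 CPM, a gap of 0.831 of the range.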

How the results depend on the processing

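Psmb8 and Psme2 were the called members, and the count of 2 called lower, all of them induced, changed with the setting. It was 1 with library totals alone and with limma on log2 FPKM with 1 or 0.1 added, and 4 with DESeq2. It was 0 with the hepatocyte covariate, among libraries with hepatocyte markers at 200 CPM or more, among those with atrial markers at most 2 times the lowest, and among those with at most 10 CPM, the last added after seeing the data. In these 4 settings the log2 fold change of Psme2 was −0.60, −0.61, −0.69 and −0.69, against −0.71 in all libraries. Without one library it was 1 to 2. The replicate numbers did not pair the libraries (correlations of same-numbered libraries 0.09, −0.11, −0.11 and 0.24), and with a replicate block the count was 1, Psmb8. Over all genes, DESeq2 called 336 lower and 268 higher where edgeR called 66 and 49. The number called lower over all genes was 48 with library totals alone, and 33 and 38 with limma and 1 or 0.1 added. It was 19 with the replicate block, 11 with the hepatocyte covariate and 4 among libraries with at most 10 CPM of the atrial genes. Without one library it was 29 to 100. The induced median was −0.50 with the hepatocyte covariate, which nearly followed the group. The log2 ratio of Psmb9 to Psmb6 differed by −1.11 between the groups. The difference was −0.42 among libraries with hepatocyte markers at 200 CPM or more and −0.53 among those with the lowest atrial markers. The cause of these changes was not tested; the subsets hold fewer libraries. No member was called higher and 0 of the 42 other members were called in any of the 20 alternatives. The 5 induced members kept a value below 0 in all of them, and Psmb8 was called in 16. Among the named members, Psmb5, Psmb7, Psmd10, Psmg1 and Psmg4, none of them called, changed sign in at least 1 alternative. Members not named here changed sign too. With limma on log2 FPKM with 1 added, 32 of the 42 others lay below 0 against 34 in the main fit, with 0 sign changes among named members.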
